A study of Mus musculus with 27 samples.

Results

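Tex19.1, Tex101, Tuba3a and Dpep3 are mouse genes known for their use in germ cells, and their DNA methylation was followed here while embryonic stem cells (ESC) turned into epiblast-like cells (EpiLC). The genes were chosen on measured values, because on D2 Tex19.1 was less methylated in cells without TET enzymes than in their parental cells, whereas the other 3 were more methylated. Members were all windows that overlap the GRCm38 body of one of these genes or lie within 10 kb of it. There were 35 such windows among 453245, with 7 at Tex19.1, 8 at Tex101, 10 at Tuba3a and 10 at Dpep3, and 13 of them overlapped a gene body. All 35 had a value in every library. As genes they were 4 of 21430 protein-coding genes with at least 1 window.

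Whole-genome bisulfite sequencing was used, and methylation was read as the percent of CpGs methylated in each window, with a median window length of 5058 bp. In TET_KO all 3 Tet genes (Tet1, Tet2, Tet3) are knocked out, TET_WT is the line it was made from, and DNMT_WT is the unmodified parent of another knockout line, whose own libraries were not used here. Each line was sampled on D0 as ESC kept in 2i/Lif and on D1 and D2 as EpiLC, with 3 libraries a line and day, which gives 9 groups and 27 libraries. Each genotype is 1 line, so anything else that differs between the lines cannot be told apart from the knockout. The labels do not say that replicates were separate cultures, and the p-values therefore measure the spread between these libraries, which may be technical. The knockout and the cell type were not checked by expression of markers. Bisulfite treatment does not separate 5-methylcytosine from the 5-hydroxymethylcytosine that TET enzymes make. The depth behind each value is unknown, since the table used here holds percentages without counts.

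DNA methylation is written by the DNMT enzymes and oxidised by the TET enzymes, which opens a path back to the unmodified base. Many germline genes have CpG-rich promoters that become methylated in the embryo around implantation and stay silent in somatic tissues, and the passage from ESC to EpiLC is a culture model of that time. Tex19.1 is a mammalian gene needed for spermatogenesis and for holding down retrotransposons in germ cells and placenta. Tex101 encodes a glycoprotein anchored in the germ cell membrane, Dpep3 a membrane dipeptidase of the testis that binds TEX101, and Tuba3a an alpha-tubulin of the testis.

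The promoters are shown because CpG sites are the bases whose methylation was read. The sequences are from RefSeq (GRCm38.p6) and run from 250 bases before to 50 bases after the transcription start on the strand of the gene, 5′ to 3′, with CpG sites in capitals. They cover chr11:121145893-121146192 on the plus strand for Tex19.1, and on the minus strand chr7:24672001-24672300 for Tex101, chr6:125286032-125286331 for Tuba3a and chr8:105979370-105979669 for Dpep3.
Tex19.1: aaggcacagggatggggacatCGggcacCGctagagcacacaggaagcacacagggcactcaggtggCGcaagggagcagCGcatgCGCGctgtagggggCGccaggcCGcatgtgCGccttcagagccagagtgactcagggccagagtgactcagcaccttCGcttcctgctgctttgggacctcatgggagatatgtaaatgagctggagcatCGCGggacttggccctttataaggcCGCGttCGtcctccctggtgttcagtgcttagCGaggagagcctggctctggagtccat
Tex101: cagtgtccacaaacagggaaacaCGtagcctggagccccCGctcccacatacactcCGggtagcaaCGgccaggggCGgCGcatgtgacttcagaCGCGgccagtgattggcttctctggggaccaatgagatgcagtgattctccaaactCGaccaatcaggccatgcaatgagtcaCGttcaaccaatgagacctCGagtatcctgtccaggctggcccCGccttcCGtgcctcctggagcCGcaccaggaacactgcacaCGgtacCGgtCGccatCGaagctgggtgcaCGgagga
Tuba3a: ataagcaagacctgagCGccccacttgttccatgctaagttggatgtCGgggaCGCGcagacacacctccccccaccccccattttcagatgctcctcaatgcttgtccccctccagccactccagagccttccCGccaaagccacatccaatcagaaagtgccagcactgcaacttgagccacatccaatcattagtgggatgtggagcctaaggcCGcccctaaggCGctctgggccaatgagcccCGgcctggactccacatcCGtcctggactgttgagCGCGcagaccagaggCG
Dpep3: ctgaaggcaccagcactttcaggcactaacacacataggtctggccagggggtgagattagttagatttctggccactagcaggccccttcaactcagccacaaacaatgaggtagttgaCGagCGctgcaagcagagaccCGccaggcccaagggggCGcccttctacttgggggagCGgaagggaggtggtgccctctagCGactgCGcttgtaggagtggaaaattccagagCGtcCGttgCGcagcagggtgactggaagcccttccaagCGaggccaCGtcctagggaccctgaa
The promoter of Tex101 held 19 CpG sites, that of Tex19.1 held 16, and those of Tuba3a and Dpep3 held 12 each, against a median of 7 over 32851 promoters of the same length. These counts are not unusual, since 71.9% of promoters held fewer sites than Tex101, 67.0% fewer than Tex19.1 and 60.4% fewer than Tuba3a and Dpep3. The letters TCCCGC, the core of an E2F6-type site, were searched on both strands and occur in 6562 of these promoters. They were found in Tex19.1 with the first base at position -33 from the start and in Tuba3a at -119, and not in the windows searched at Tex101 and Dpep3. The E-box CACGTG, which reads the same on both strands and occurs in 7.15% of promoters, was in none of the 4. A match here is a description of letters and not a bound site.

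Levels of the gene bodies came first. A body level is the mean of the windows that overlap the gene, which for a short gene reach beyond it. On D0, Tex19.1 (chr11:121146143-121148314) had body levels of 20.5%, 21.6% and 20.8% in the 3 TET_WT libraries and of 28.1%, 26.7% and 27.7% in TET_KO. The 2 groups lay apart but close to each other. On D1 the same gene had 33.5%, 25.4% and 34.8% in TET_WT and 31.8%, 29.1% and 31.3% in TET_KO, and the groups overlapped. On D2 it had 52.1%, 55.2% and 51.9% in TET_WT and 43.1%, 40.4% and 40.9% in TET_KO, so that every TET_KO library was below every TET_WT library, which is the pattern the gene was chosen for. Tex19.1 thus began slightly above its parental line and ended beneath it. TET_WT D1 replicate 2 was the lowest of its group at Tex19.1, and its median over all windows was also lowest, at 31.6% against 34.8% and 34.7%.

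The other 3 genes began high in TET_KO. Tex101 (chr7:24668012-24672050) had body levels of 31.5%, 31.2% and 31.6% in TET_WT on D0, against 61.3%, 61.1% and 62.2% in TET_KO. Its D1 values were 44.7%, 37.7% and 43.1% in TET_WT and 71.8%, 71.8% and 72.0% in TET_KO. On D2 they were 64.5%, 63.1% and 59.5% in TET_WT and 81.1%, 80.5% and 80.5% in TET_KO. No TET_KO library overlapped a TET_WT library on any day. Tuba3a (chr6:125278270-125286081) had body means of 31.3% ± 0.518 (SD, n = 3) in TET_WT and 64.8% ± 1.46 in TET_KO on D0, 43.4% ± 3.76 and 74.5% ± 1.14 on D1, and 64.1% ± 1.95 and 82.7% ± 0.911 on D2. Dpep3 (chr8:105973520-105979419) had 32.3% ± 2.16 and 65.2% ± 1.65 on D0, 42.6% ± 1.96 and 70.7% ± 1.24 on D1, and 65.4% ± 1.97 and 80.3% ± 3.99 on D2 in the same order. The Dpep3 libraries of TET_KO on D2 were the most spread of the 3 genes, at 79.7%, 84.5% and 76.6%.

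**Figure D1:**
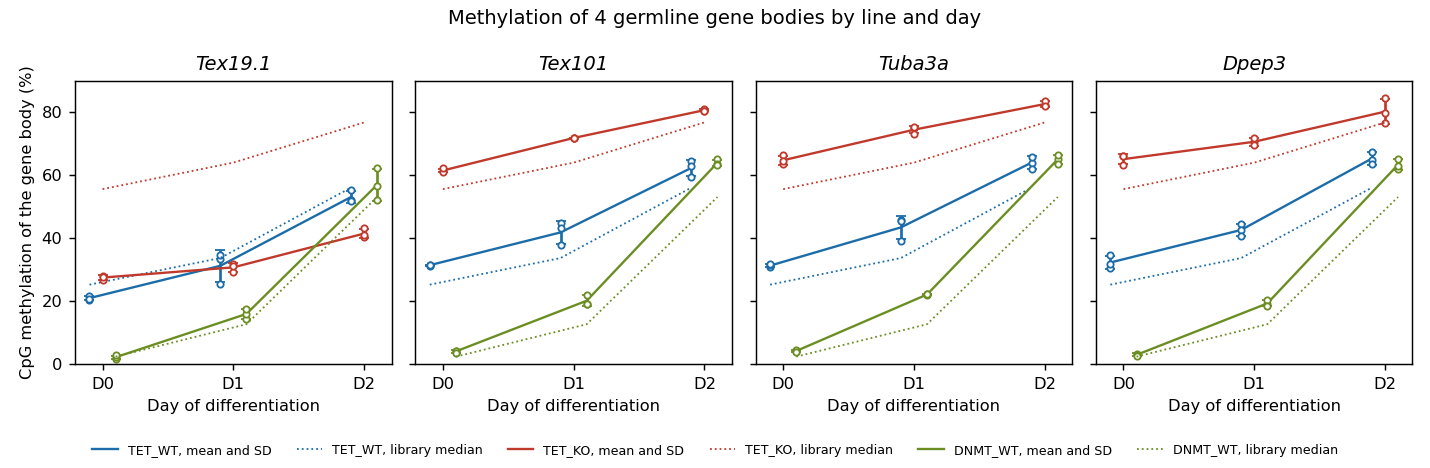
Body methylation in percent (vertical axis) on D0, D1 and D2 (horizontal axis) for the 4 genes; open points are single libraries, solid lines join group means with SD bars (n = 3), and dotted lines give the median of all windows, averaged over the libraries of the group. In Tex19.1 the TET_KO line starts at 27.5% and ends at 41.5%, far below its dotted line, while in the other 3 genes it runs above it.

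A gene or window is counted as called where the Benjamini-Hochberg adjusted p of limma over all genes or all windows was under 0.05 and the difference was at least 10 percentage points. Differences are in percentage points ± SE. Of the 4 genes, 3 were called higher in TET_KO than in TET_WT on D0, when 96.2% of all genes were called higher: Tex101 by 30.1 ± 1.33 (adjusted p = 1.32e-17), Tuba3a by 33.5 ± 1.34 and Dpep3 by 32.9 ± 1.55. The median difference of all genes was 25.2 points, so these 3 lay on the upper side of the genes. Tex19.1 differed by 6.52 ± 1.96 points (adjusted p = 0.0028 in limma), which passes the adjusted p but falls short of 10 points. Only 377 of 21430 genes had a smaller difference than Tex19.1 on D0. The D0 libraries of these 2 lines also enter the D0 to D2 gain that the choice of genes refers to. Member p-values and calls that use them, here and below, are therefore not independent of the choice and are read as a description. The D1 libraries do not enter that gain. They come from the same 2 lines, however, so the D1 values of members are not independent of the choice either.

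On D1 the same 3 genes were called higher, against 96.1% of all genes, with 30.0 ± 1.33 points for Tex101, 31.1 ± 1.34 for Tuba3a and 28.0 ± 1.55 for Dpep3 beside a median of 24.4 over all genes. Tex19.1 differed by -0.484 ± 1.96 points (adjusted p = 0.81 in limma), with a sign that turned when TET_WT D1 replicate 1, TET_WT D1 replicate 3 or TET_KO D1 replicate 2 was left out (0.655, 1.31 and 0.324 points). In all, 7 genes had a lower difference than Tex19.1 on D1. No gene was called lower in TET_KO by limma on D0 or D1, and 3 genes on each day were lower at an unadjusted p under 0.05.

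The shift between the 2 lines was shared by most of the genome, since the median over all windows was 30.4 points higher in TET_KO on D0, 30.3 on D1 and 20.7 on D2. Relative to these medians Tex19.1 was lower in TET_KO by 23.9 points on D0, a direction opposite to that in percent (difference -23.9, adjusted p = 1.85e-11 in limma), and by 30.8 points on D1 (difference -30.8, adjusted p = 2.09e-13). Tex101 then differed by -0.270 points on D0 and -0.315 on D1 (adjusted p = 0.83 and 0.80 in limma), so its sign turned as well. These medians are of windows, and the median difference over genes was smaller, at 25.2 points on D0 and 24.4 on D1. A typical gene therefore turns negative by this centring. In percent, 84.7% and 87.1% of genes had a smaller difference than Tex101. Tuba3a kept 3.13 points on D0 (adjusted p = 0.0028) and 0.725 on D1 (adjusted p = 0.45), and Dpep3 had 2.49 and -2.30 (adjusted p = 0.072 and 0.094). Of the 4, Tex19.1 alone left the shift of the window medians by more than 10 points on either day.

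On D2 the values are given without a test, because they chose the genes. TET_KO less TET_WT was -11.6 points for Tex19.1, 18.4 for Tex101, 18.6 for Tuba3a and 14.9 for Dpep3, beside a median of 14.9 over all genes. The direction at Tex19.1 holds for the body alone: with 10 kb on either side included the difference was 5.38 points, and the median of its 7 windows was 7.05. Past the same thresholds 85.8% of genes were higher and 0.014% lower, the latter being 3 genes. These were Gm20385 at -18.1 points, Tcte3, a gene of a testis-expressed dynein light chain, at -15.2, and Tex19.1. The first 2 are named because of their values, and Tex19.1 was chosen for this direction, so its place here is a description. The gain from D0 to D2 was smaller in TET_KO than in TET_WT for all 4 genes, by -18.1 points for Tex19.1, -11.7 for Tex101, -14.9 for Tuba3a and -18.0 for Dpep3, as it was for 46.3% of all genes past the thresholds. The shortfall of Tex19.1 was thus about that of Dpep3, while their TET_KO levels on D0 were 27.5% and 65.2%.

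**Figure D2:**
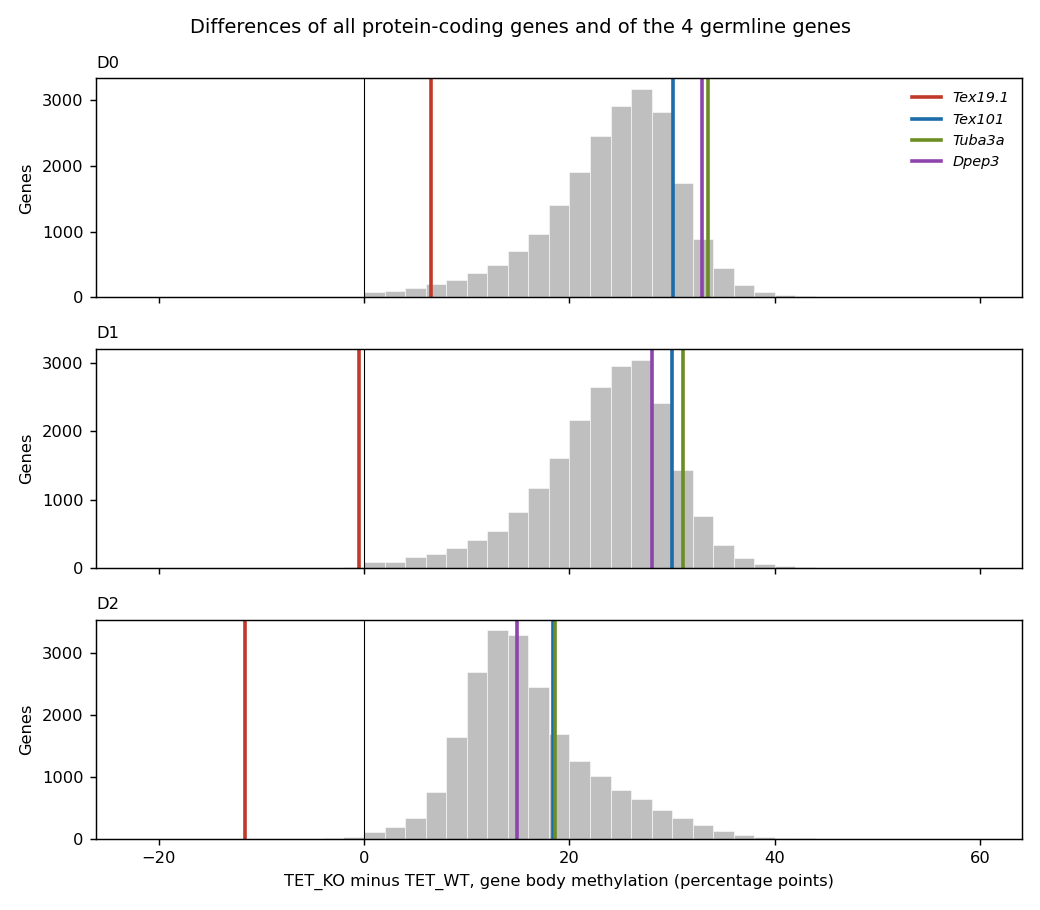
Number of protein-coding genes (vertical axis) by the difference of TET_KO less TET_WT in body methylation in percentage points (horizontal axis), for D0, D1 and D2; coloured lines mark the 4 genes. Tex19.1 lies at 6.52, -0.484 and -11.6 points, left of nearly the whole distribution on D1 and D2, and the other 3 genes lie within it.

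Window by window, the smallest differences at Tex19.1 were in the 2 body windows, chr11:121143952-121146284, which holds the transcription start and the promoter printed above, and chr11:121146295-121149759, which holds most of the gene. The first window had 20.4%, 22.7% and 19.4% in TET_WT on D0 and 29.5%, 26.6% and 29.9% in TET_KO, and the groups did not overlap. The second had 20.6%, 20.5% and 22.2% in TET_WT and 26.7%, 26.7% and 25.5% in TET_KO. Their differences were 7.83 ± 2.89 and 5.22 ± 2.38 points (adjusted p = 0.012 and 0.039 in limma), so neither reached 10 points. On D1 they were 0.346 ± 2.89 and -1.31 ± 2.38 points (adjusted p = 0.91 and 0.59).

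The windows next to these differed more. Upstream, chr11:121138571-121143866 had 18.1%, 17.9% and 19.0% in TET_WT on D0 and 60.0%, 52.4% and 50.8% in TET_KO, a difference of 36.1 ± 1.95 points. Downstream, chr11:121149766-121155138 had 27.9%, 32.9% and 24.2% against 61.7%, 51.0% and 60.3%, a difference of 29.3 ± 2.64 points, beside a median of 27.5 over all windows. On D1 these 2 neighbours still differed by 35.5 ± 1.95 and 25.7 ± 2.64 points. All 5 windows of the Tex19.1 flank were called higher on D0 and 4 of 5 on D1, against 92.9% and 92.6% of all windows. The exception was chr11:121155164-121156806, a short and so CpG-dense window with 3.78% ± 0.907 in TET_WT and 16.8% ± 1.76 in TET_KO on D0, which differed by 9.31 ± 1.51 points on D1. Next to it, chr11:121156824-121159712 differed by 19.7 ± 2.11 points on D0 and 20.7 ± 2.11 on D1, and by 5.76 on D2 (no test). Low differences thus reached into the downstream flank: 9.01% of all windows had a smaller D0 difference than the first of this pair and 17.7% than the second, against 6.03% and 4.92% for the body windows and 89.7% for the upstream neighbour. The nearest windows beyond 10 kb, chr11:121125510-121133021 and chr11:121159713-121161869 in Uts2r, which encodes a urotensin receptor, differed by 24.3 ± 2.06 and 31.1 ± 2.63 points on D1.

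Body less flank within each library restates these values as 1 quantity. It was chosen after the window values had been seen and is given as a description, with no test. For Tex19.1 it was 1.12, 2.77 and 3.56 points in TET_WT on D0 and -19.8, -16.7 and -16.8 in TET_KO. On D1 it was 5.77, 0.534 and 8.78 in TET_WT and -18.5, -22.1 and -21.7 in TET_KO. The body lay slightly above its surroundings in every TET_WT library and below them in every TET_KO library. TET_KO less TET_WT was -20.2 points on D0 and -25.8 on D1. The same quantity was -0.144 and 1.70 points for Tex101, 3.26 and 2.97 for Tuba3a, and 10.2 and 7.73 for Dpep3. The Dpep3 flank holds 2 windows of Slc12a4, described below, that were low in both lines and differed little. They lower its flank difference, so the Dpep3 values depend in part on which windows the flank holds. On D2 it was -23.8 for Tex19.1, 1.07 for Tex101, -1.80 for Tuba3a and 0.932 for Dpep3. In DNMT_WT, Tex19.1 body less flank was -0.209 ± 0.590 (SD, n = 3) on D0, 2.03 ± 2.03 on D1 and 9.01 ± 3.93 on D2.

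**Figure D3:**
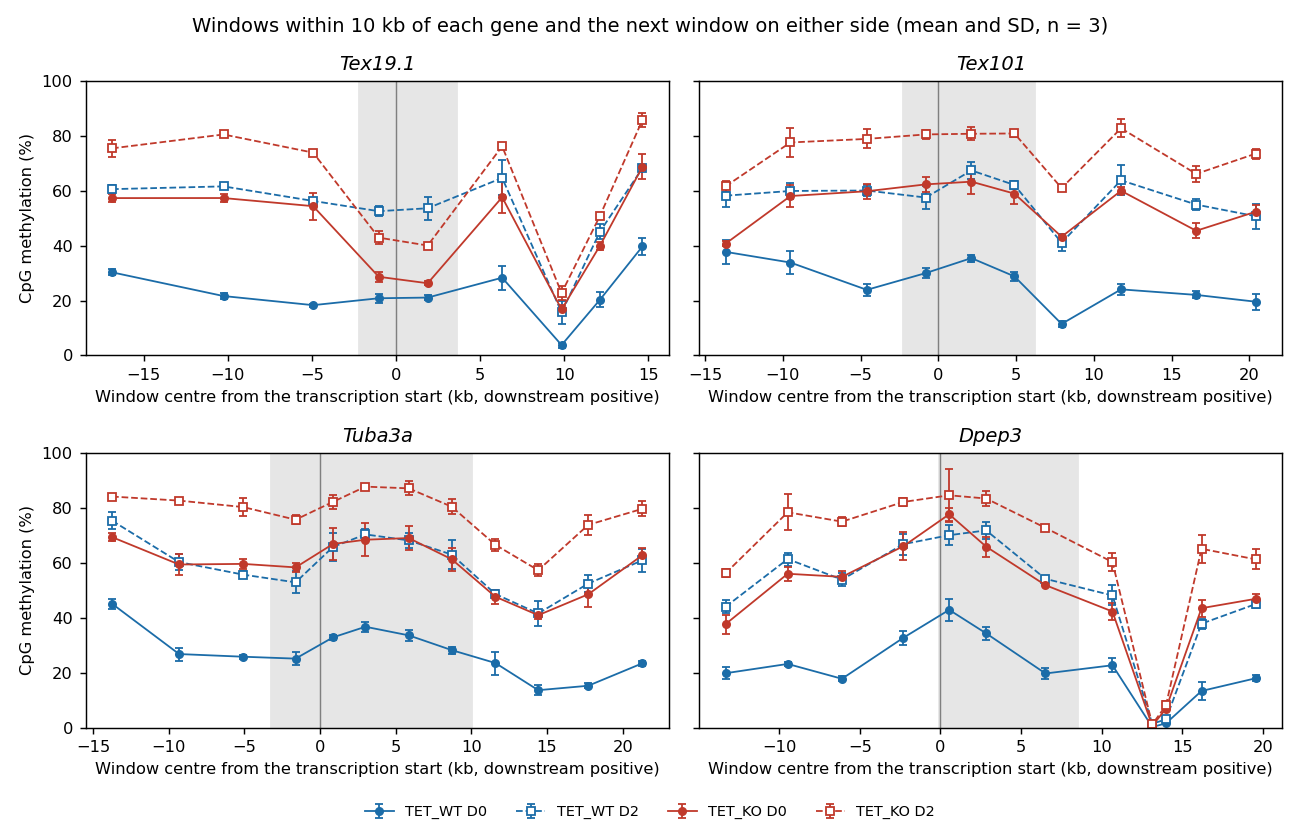
Methylation in percent (vertical axis) of each window by the distance of its centre from the transcription start in kb (horizontal axis, downstream positive), for TET_WT and TET_KO on D0 and D2 (mean and SD, n = 3); the shaded span marks windows that overlap the gene body and the outermost points are the nearest windows beyond 10 kb. At Tex19.1 both TET_KO lines drop in the 2 shaded windows, to 28.7% and 26.3% on D0, and recover to 57.7% in the next window. Further downstream they drop again, to 16.8% on D0 and 22.7% on D2, where TET_WT is low as well, at 3.78% and 15.7%. At Dpep3 the groups shown drop to 8.06% or less in 2 windows of Slc12a4.

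Across all 35 windows, 31 were called higher in TET_KO on D0, against 92.9% of all windows, and 30 on D1, against 92.6%. The 4 windows not called on D0 were both body windows of Tex19.1 and 2 windows of the Dpep3 flank. All 8 windows of Tex101 were called on both days, with differences of 23.4 to 35.9 points on D0, and all 10 of Tuba3a, with 24.1 to 35.5 points. The median difference of the 35 windows was 31.8 points on D0 and 28.5 on D1, beside 27.5 and 27.4 over all windows. Relative to the library medians the split changed, with 0 of 35 called higher and 7 lower on D0 and 0 higher and 6 lower on D1 by limma. Of all 444250 windows, 16376 were then higher and 85414 lower on D0, and 12255 higher and 88161 lower on D1. On D2, by size alone and with no test, 29 windows were at least 10 points higher and 1 at least 10 points lower. The latter was the second body window of Tex19.1. Over all windows, 84.3% were called higher and 0.0542% lower. In the gain from D0 to D2, also by size alone, 26 of the 35 were at least 10 points lower in TET_KO. Of all windows 44.2% were called lower.

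The 2 exceptions near Dpep3 lie in Slc12a4, which encodes a potassium chloride cotransporter. Window chr8:105965925-105966641 had 0.188% ± 0.220 (SD, n = 3) in TET_WT and 0.601% ± 0.485 in TET_KO on D0 and differed by 0.413 ± 0.425 points (adjusted p = 0.35). Its neighbour chr8:105964950-105965915 had 1.52% and 6.86% and differed by 5.35 ± 0.624 points (adjusted p = 3.86e-09), below the minimum of 10. On D2 these windows still held 1.38% and 2.96% in TET_WT and 1.12% and 8.06% in TET_KO. They were thus low in both lines on both days, whereas the Tex19.1 body windows reached 52.6% and 53.6% in TET_WT and 42.9% and 40.1% in TET_KO on D2. The windows of Dpep2 that lie in the Dpep3 flank, chr8:105983906-105987150 and chr8:105987151-105990634, differed by 37.1 ± 1.73 and 32.9 ± 2.18 points on D0. Just beyond the flank of Tex101, chr7:24684253-24687214 had 37.8% in TET_WT and 40.7% in TET_KO on D0 and differed by 2.97 ± 2.38 points (adjusted p = 0.23).

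The time course asked when the genes gained methylation. From D0 to D1 all 4 genes rose in TET_WT, against 13.7% of all genes called, with 10.3 ± 1.96 points for Tex19.1, 10.4 ± 1.33 for Tex101, 12.2 ± 1.34 for Tuba3a and 10.4 ± 1.55 for Dpep3. Except at Tuba3a these steps sit just past 10 points and the calls ended when 1 library was left out. Tex19.1 rose by 9.12 points without TET_WT D1 replicate 1 and by 8.47 without TET_WT D1 replicate 3. Tex101 gave 8.98 and 9.79 points without the same libraries, and Dpep3 gave 9.34 without TET_WT D1 replicate 1 and 9.45 without TET_WT D0 replicate 1. Relative to the library medians, which rose by 8.46 points, the steps were 1.80, 1.96, 3.70 and 1.90 points.

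In TET_KO, only Tex101 of the 4 genes was called between D0 and D1, at 10.3 ± 1.33 points, against 2.88% of all genes. Tuba3a had 9.71 ± 1.34 points and was called without TET_KO D0 replicate 1 or TET_KO D1 replicate 2 (10.5 and 10.4 points), and Dpep3 had 5.53 ± 1.55. Tex19.1 had 3.25 ± 1.96 points (adjusted p = 0.11 in limma), and 1921 of 21430 genes had a smaller step. The difference of this step between TET_KO and TET_WT, a contrast added after seeing the data, was -7.01 ± 2.77 points for Tex19.1 (adjusted p = 0.76), -0.0798 ± 1.88 for Tex101, -2.44 ± 1.90 for Tuba3a and -4.83 ± 2.19 for Dpep3. By limma it called 0 of 21430 genes, 0 at any size, while 1129 genes were lower and 247 higher at an unadjusted p under 0.05. A smaller step at Tex19.1 in TET_KO was therefore not shown. Among the 35 windows, 15 rose from D0 to D1 in TET_WT, against 27.6% of all windows, and 5 in TET_KO, against 20.1%. The latter count became 8 without TET_KO D0 replicate 1, TET_KO D0 replicate 3 or TET_KO D1 replicate 1. The TET_WT count ranged from 11 to 22 when 1 library was left out.

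The step from D1 to D2 is given for TET_WT and TET_KO as a description without p-values, because it uses the D2 libraries that chose the genes. In TET_WT it was 21.9 points at Tex19.1, 20.5 at Tex101, 20.6 at Tuba3a and 22.7 at Dpep3, where 90.3% of all genes were called and the median was 18.8. In TET_KO it was 10.8 points at Tex19.1, 8.86 at Tex101, 8.16 at Tuba3a and 9.58 at Dpep3, where 52.1% of all genes were called. The library medians rose by 22.4 points in TET_WT and by 12.8 in TET_KO. Relative to them the sign turned for Tex19.1, Tex101 and Tuba3a in TET_WT (-0.514, -1.89 and -1.79 points, with 0.323 at Dpep3) and for all 4 genes in TET_KO (-2.03, -3.93, -4.63 and -3.20). Past the limma thresholds, also as a description, were 32 of the 35 windows in TET_WT, beside 88% of all windows, and 23 in TET_KO, beside 65.8%.

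DNMT_WT shows the same 4 genes starting from nearly no methylation. On D0, Tex19.1 had 1.65%, 2.11% and 2.73%, Tex101 4.26%, 4.27% and 3.54%, Tuba3a 4.02%, 4.58% and 3.84%, and Dpep3 3.31%, 2.98% and 2.45%. All of these libraries were below all TET_WT libraries, and the 4 genes were called lower by -18.8 ± 1.96, -27.4 ± 1.33, -27.1 ± 1.34 and -29.4 ± 1.55 points, against 84.8% of all genes. On D1 they were still lower by -15.3 ± 1.96, -21.7 ± 1.33, -21.3 ± 1.34 and -23.4 ± 1.55 points, against 74.1%. The median over all windows was itself lower by 22.9 points on D0 and 21.0 on D1 (differences -22.9 and -21.0). Relative to it Tex19.1 was higher in DNMT_WT, by 4.09 points on D0 and 5.75 on D1 (adjusted p = 0.030 and 0.0036 in limma), short of 10 points. The differences of Tex101, Tuba3a and Dpep3 were -4.52, -4.25 and -6.48 on D0. Among genes Tex19.1 was ordinary, since its -18.8 and -15.3 points stood beside medians of -18.6 and -15.3 over all genes. On D0 its DNMT_WT mean of 2.16% was near the floor and below the median of all windows, 2.35%. On D2 the DNMT_WT means were 57.0% ± 5.08 (SD, n = 3) for Tex19.1, 64.0% ± 0.967 for Tex101, 65.1% ± 1.40 for Tuba3a and 63.4% ± 1.66 for Dpep3. DNMT_WT less TET_WT was then 3.90, 1.65, 1.04 and -1.96 points, given with no test because the TET_WT libraries of D2 took part in the choice of the genes. Over all genes 0.621% were called higher and 3.12% lower.

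In DNMT_WT all 4 genes rose in both steps, and the steps were not compared with those of TET_WT by a test. From D0 to D1 the gain was 13.8 ± 1.96 points at Tex19.1, 16.1 ± 1.33 at Tex101, 18.0 ± 1.34 at Tuba3a and 16.4 ± 1.55 at Dpep3, all called, against 55.6% of all genes. From D1 to D2 it was 41.1 ± 1.96, 43.9 ± 1.33, 43.0 ± 1.34 and 44.1 ± 1.55 points, all called, against 97.4%. Of the 35 windows, 32 were called lower than TET_WT on D0 (88.9% of all windows) and 29 on D1 (85.6%). Relative to the library medians most of the 35 windows were called in neither direction, 28 on D0 and 27 on D1. On D0 6 were called higher and 1 lower, beside 70019 and 60085 of all 444250 windows. On D1 7 were called higher and 1 lower, beside 71201 and 35338. On D2, by size alone and with no test, 0 of the 35 differed by 10 points or more. Over all windows 10.5% were called lower and 1.78% higher. The gain from D0 to D2 in DNMT_WT exceeded that in TET_WT by 22.7 to 29.1 points at the 4 genes, where 85.3% of all genes were called. Past the thresholds were 32 of the 35 windows, beside 82.7% of all windows. Both are descriptions, because the D2 libraries of TET_WT took part in the choice of the genes. In this line 30 of the 35 windows rose from D0 to D1, against 49% of all windows, and 32 from D1 to D2, against 94.9%. On D2 Tex19.1 was the lowest of the 4 genes in every line, at 53.1% in TET_WT, 57.0% in DNMT_WT and 41.5% in TET_KO, where the other 3 had 62.4% to 65.4%, 63.4% to 65.1% and 80.3% to 82.7%.

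Levels were also ordered within a line and day. In TET_WT on D0, Tex19.1 had the lowest body mean of the 4, at 21.0% ± 0.568, and Tex101, Tuba3a and Dpep3 at 31.4%, 31.3% and 32.3% did not separate beyond their spread. In TET_KO, Tex19.1 was again lowest on each day, at 27.5% ± 0.743, 30.7% ± 1.42 and 41.5% ± 1.44, and on D2 no library of another member was below 76.6%. Over the 9 group means Tex101, Tuba3a and Dpep3 lay within 1.74 to 2.01 points of each other (root mean square difference), and Tex19.1 lay 23.0 to 24.7 points from them. The 9 include the D2 means that chose the genes, so these distances are a description.

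Genes with the most similar pattern were sought among all genes on other chromosomes, by the root mean square difference of the 9 group means. The D2 means that chose the members are among the 9, so how few genes are near Tex19.1 is partly set by the choice. For Tex19.1 they were Gm31255 at 5.23 points, Gm10778 at 5.77 and Rgcc, a cell cycle regulator, at 5.99, and 0 genes were within 5 points. Gm31255 had 29.1% in TET_WT and 31.1% in TET_KO on D0 and 54.5% and 45.4% on D2. For the others many genes were closer: 2812 genes lay within 5 points of Tex101, 1816 of Tuba3a and 2464 of Dpep3. Nearest to Tex101 were Atp6ap1l at 0.686 points, Ccn4 and P2ry12, a purine receptor, nearest to Tuba3a were Guca2b at 0.901, Casr, the calcium-sensing receptor, and Angptl1, and nearest to Dpep3 were Kcnj1, a potassium channel, at 1.09, Adgrl2 and Filip1l.

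The paralogues were all called higher in TET_KO than in TET_WT on D0, D1 and D2, against 96.2%, 96.1% and 85.8% of all genes. The paralogue of Tex19.1, Tex19.2 (chr11:121116215-121118677) on the same chromosome, had 29.1% ± 1.04 in TET_WT and 58.2% ± 2.00 in TET_KO on D0, a difference of 29.1 ± 1.79 points, and differed by 24.2 ± 1.79 on D1 (adjusted p = 1.51e-14 and 7.79e-13 in limma). The promoter of Tex19.2 held 2 CpG sites. Tuba3b, a near-identical copy of Tuba3a, differed by 25.9 ± 1.83 points on D0 and 23.9 ± 1.83 on D1, and reads of the 2 copies may not be told apart in mapping, which leaves both genes uncertain. Among the relatives of Dpep3, Dpep1 differed by 27.1 ± 1.19 and 24.6 ± 1.19 points and Dpep2 by 30.5 ± 1.32 and 29.4 ± 1.32 on D0 and D1.

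Other germline genes were read from 4 lists by role, with 66 genes besides the members. All 66 were called higher in TET_KO on D0 and on D1, near the 96.2% and 96.1% of all genes, and so the full counts of each list below are near that share too. Their median differences were 25.9 and 25.1 points, close to the 25.2 and 24.4 of all genes. None of the 66 had a smaller difference than Tex19.1 on either day, which is near the share of all genes, 1.76% on D0 and 0.0327% on D1. The lowest were Sycp2, of the synaptonemal complex, at 16.6 points on D0 and Meioc, which sustains meiotic prophase, at 16.2 on D1. The piRNA list counted 16 of 16 genes on both days (median 28.2 points on D0), led by the helicase gene Ddx4 at 32.7 ± 1.18 and 33.9 ± 1.18 and by Piwil1, a PIWI protein gene, at 30.9 and 32.8. The meiosis list counted 26 of 26 (medians 25.2 and 24.5), with Majin, which tethers meiotic telomeres, at 33.3 ± 1.36 and 31.5 ± 1.36, and Spo11, which makes the meiotic double-strand breaks, at 30.0 ± 1.16 on D1. Germ cell regulators counted 12 of 12 (medians 24.9 and 23.1), with Nanos2, a gene of male germ cells, at 36.8 ± 2.16 and 32.1 ± 2.16. Testis and sperm proteins, the list closest in role to Tex101, Tuba3a and Dpep3, counted 12 of 12 (medians 28.7 and 27.3), with Odf1, of the sperm tail, at 33.0 ± 1.26 on D0 and Hspa1l at 32.4 ± 1.57 on D1.

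From D0 to D1, 9 of the 66 genes rose in TET_WT, beside 13.7% of all genes, and 0 in TET_KO by limma at 10 points, beside 2.88%. At any size 65 passed the adjusted p in TET_WT and 64 in TET_KO, where 64 also had an unadjusted p under 0.05. The step of Tex19.1 in TET_KO, 3.25 points, was above that of 3 of the 66, beside 8.96% of all genes. From D1 to D2, 65 of 66 rose in TET_WT, near the 90.3% of all genes, with the sperm enzyme gene Ldhc at 26.0 ± 1.36 points and the piRNA gene Piwil4 at 25.9 ± 1.19, and 39 of 66 rose in TET_KO, near the 52.1% of all genes.

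**Figure D4:**
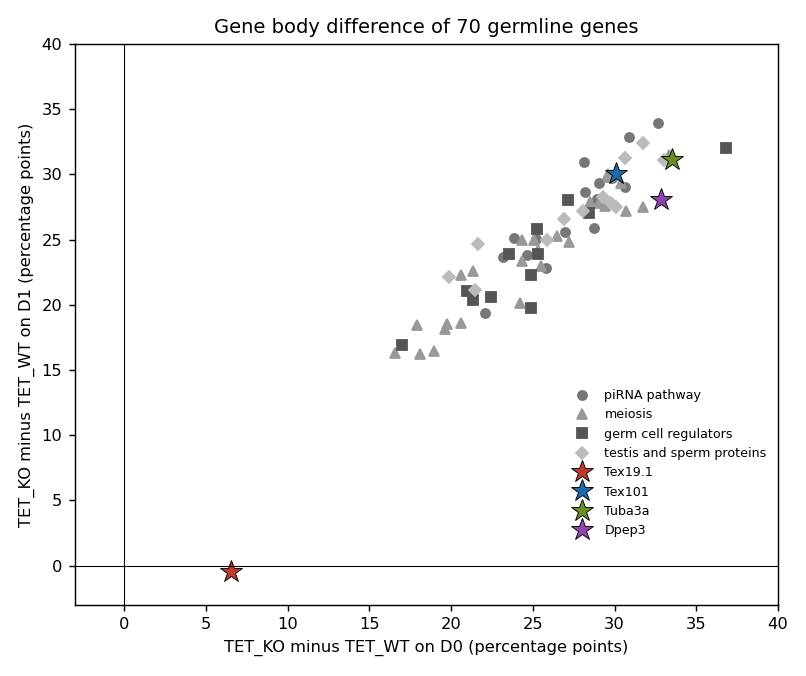
Body difference of TET_KO less TET_WT on D0 (horizontal axis) and on D1 (vertical axis), both in percentage points, for 66 germline genes by list (grey shapes) and the 4 members (stars). The grey points lie at 16.6 points or more on D0 and at 16.2 or more on D1, with Tex101, Tuba3a and Dpep3 among them at 30.1, 33.5 and 32.9 on D0, and Tex19.1 lies apart at 6.52 and -0.484.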

How the data were processed

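Per the labels' protocols, sonicated DNA received methylated adapters and was bisulfite converted before amplification. Per the submitters' processing notes, Trim Galore 0.6.6, cutadapt 2.3 and Bismark 0.23.0 were used with GRCm38. The authors deposited 1 table with the percent methylation of windows of a fixed CpG number in 27 libraries, without counts, so depth and sampling error per value are unknown. Of 453245 windows, 444250 nuclear windows without missing values were fitted with limma 3.58.1 (R 4.3.3, trended empirical Bayes) on percentages, with 9 group means and Benjamini-Hochberg adjustment over all windows, and likewise over 21430 genes as the mean of windows overlapping the body. The code was tested on simulated data. Calls needed an adjusted p under 0.05 and 10 points. Contrasts with TET_WT or TET_KO libraries of D2 are given for the members as descriptions, without p-values. Members and gene lists were chosen with earlier results of these data known. Named genes were the members, their paralogues, genes sharing a member window, the 3 most alike genes per member on other chromosomes, and up to 2 called genes per germline list with the largest difference. Alternatives changed the minimum difference, flank, scale, centring, summary and libraries. Promoters are from RefSeq (GRCm38.p6), counted with Python 3.11.15 and pandas 2.3.3. Other knockout libraries were not analysed here.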

Additional observations from a re-analysis of the deposited data

Results flagged for a closer look

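The gain from D0 to D2 stood apart between the parental lines, in a contrast added after seeing the data. DNMT_WT gained more than TET_WT by 22.7 points at Tex19.1, 29.1 at Tex101, 28.2 at Tuba3a and 27.4 at Dpep3. The TET_WT libraries of D2 took part in the choice of these genes, so the values are a description and no p is given for them. Over all genes limma called 85.3% higher, with a median of 17.8 points. Relative to the library medians the differences at the 4 genes were between 2.78 and 9.15 points.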

How the results depend on the processing

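Fits without a trend, on the logit scale, on the compared groups alone or with a replicate block changed no call of a member gene. In these fits, and with at least 2 values a group, the counts of called member windows were classed as unchanged. That class allows moderate shifts of a count, and calls of single windows were not compared. With the replicate block, 31 and 30 of 35 windows were higher in TET_KO on D0 and D1, as without it. Across windows, less the group means, same-numbered libraries had correlations of -0.0549 to 0.0570. Such correlations cannot show a shift shared by whole libraries, so a pairing of that kind was not tested by them. Centring on library medians left 0 windows higher in TET_KO on D0, D1 and D2 and 2 lower in the gain. It left 0 higher in each step of TET_WT and TET_KO and 3 and 0 higher in those of DNMT_WT. Lower were then 7, 6 and 6 on D0, D1 and D2, 3 from D1 to D2 in TET_WT and 3 in TET_KO, and 2 and 4 in the DNMT_WT steps. DNMT_WT against TET_WT had 1 lower and 6 higher on D0, 1 lower and 7 higher on D1, and 4 higher and 3 lower in the DNMT_WT gain. Centring reversed Tex19.1 (D0 -23.9, TET_WT D1 to D2 -0.514, TET_KO steps -5.17 and -2.03, DNMT_WT 4.09 and 5.75 on D0 and D1), Tex101 (-0.270, -0.315 and -2.36 on the 3 days, D1 to D2 -1.89 and -3.93), Tuba3a (D2 -2.11, D1 to D2 -1.79 and -4.63) and Dpep3 (D1 -2.30, D2 -5.82, TET_KO steps -2.90 and -3.20, DNMT_WT on D2 1.02), since it removes the shift shared by most windows. A flank of 5 kb, with fewer windows, gave 20 on D0 and 14 in the TET_KO step from D1 to D2. A flank of 20 kb, with more, gave 50, 49 and 44 on D0, D1 and D2, 40 in the gain, 24 and 52 in the TET_WT steps, 10 and 37 in those of TET_KO, 50 and 52 in those of DNMT_WT, 51 and 46 in DNMT_WT against TET_WT, and 51 in its gain. A minimum of 5 points gave 31 and 25 from D0 to D1 in TET_WT and TET_KO and 3 higher in DNMT_WT on D2. A minimum of 20 gave 7 on D2, 1 in the gain, 0 and 20 in the TET_WT steps, 0 and 0 in those of TET_KO, 3 from D0 to D1 in DNMT_WT, 21 and 11 in DNMT_WT against TET_WT, and 21 in its gain. Leaving out 1 library gave 11 to 22 windows from D0 to D1 in TET_WT and 4 to 8 in TET_KO. It also gave -3.42 to 1.31 points at Tex19.1 on D1 and -2.14 to 1.35 for the Tex101 step difference. With 10 kb on either side, Tex19.1 differed by 18.0 on D1 and 5.38 on D2, and Dpep3 in DNMT_WT on D2 by 0.233. The shortest window gave 0.346 for Tex19.1 on D1, 2.53 and 0.477 for the step difference of Tex101 and Tuba3a, and 2.09 for Dpep3 in DNMT_WT on D2; the start window gave 0.346 and 2.09 likewise. Weighting by bases gave -1.34 and -0.0535 for Tex101 and Tuba3a in DNMT_WT on D2 and 0.0690 for the Tex101 step difference. The cause of these last reversals was not tested.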
